A study of Pyrus pyrifolia with 6 samples.

Results

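The ECERIFERUM 1-like genes of pear form a small family of wax genes, and 5 of them, among the 42966 genes of the deposited table, were followed in the fruit skin of sand pear. They are the genes 103929753, 103932052, 103929751, 103929758 and 103929757. They were taken from the study's list of cutin, suberine and wax genes because they differed between green and russet skin in these same libraries. The difference between both skins is therefore given for them as a description, and no test of it was made. RNA was sequenced from the green skin of ‘Suisho’, a bud mutant line of ‘Niitaka’ (libraries B1, B2 and B3), and from the russet skin of ‘Niitaka’ itself (libraries A1, A2 and A3). A bud mutant is propagated from a single mutated shoot, so each line is 1 clone that shares most of its genome with the other. Both lines were grown in an orchard, fruits were taken at 80 DAA (days after anthesis), and each of the 3 samples of a line combined the skin of 10 fruits. Tests between the skins therefore measure the spread among fruit samples of 1 clone each, and not among lines or seasons. How many trees gave the fruits is not stated. The library number of each sample could not be read from the labels.

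ECERIFERUM 1 (CER1) is known from Arabidopsis, where it acts with CER3 to turn very-long-chain acyl-CoA into alkanes. Alkanes are a main part of the wax that seals the cuticle of leaves, stems and fruits against water loss. Green pear skin is covered by such a waxy cuticle, whereas russet skin is covered by layers of dead, suberized cork cells. Suberin and cutin are polyesters of fatty acids, and they draw on the same pool of acyl chains as the wax alkanes.

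The tables hold the FPKM of each gene, i.e., the reads on the gene per kilobase of its length, scaled to the reads of the library. The read numbers behind these values were recovered from FPKM and gene length, or another length where the listed one gave no whole numbers. The libraries rested on 31381552 to 42729578 reads, so that 1 read on a kilobase of gene was worth 0.0234 to 0.0319 FPKM. Green and russet skin were compared across the 30161 genes that reached 0.1 FPKM on average by limma on log2(FPKM + 0.1), and log2 differences are green minus russet. Product names were at hand for 1780 genes of the table, and these held no marker of epidermis or of xylem from the lists used. Among them, the summed level of 2 chlorophyll a-b binding protein genes was 262 to 376 FPKM in green libraries and 422 to 526 FPKM in russet libraries. For 2 oleosin genes, known from seeds, the summed level was 10.7 to 24.2 FPKM in green libraries and 1.42 to 4.27 FPKM in russet libraries. The single sieve element occlusion gene, a phloem gene, had 0.458 to 0.764 FPKM in green libraries and 0.826 to 1.37 FPKM in russet libraries. The part of these cell types in the results was not tested, and the epidermal identity of the skin could not be checked.

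All 5 ECERIFERUM 1-like genes were expressed in each green library and were silent, or nearly so, in russet skin. Together they held 4161 reads over the 3 green libraries and 4 reads over the 3 russet ones. Their summed level was 21.6, 29.3 and 18.9 FPKM in green libraries B1, B2 and B3. The sum was 0 in russet libraries A1 and A2 and 0.0447 FPKM in A3. How reads that match several genes of the family were assigned is not stated, and the reads of sand pear were placed on the genome of Chinese white pear, so the split among members is uncertain. In a bulk sample of skin, fewer cells that express a gene and less of its RNA per cell cannot be told apart.

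The most abundant member was 103929753, on the minus strand of scaffold NW_008988491.1 from 328629 to 334951. It had 9.58, 13.3 and 9.31 FPKM in green libraries B1, B2 and B3, from 854, 1008 and 625 reads. Russet libraries A1 and A2 held no read of it, and A3 had 0.0447 FPKM, from 4 reads. It was the only member with any russet read, and all of these came from 1 library. The ratio of the means, 10.7 ± 2.24 FPKM in green skin over 0.0149 ± 0.0258 FPKM in russet skin (SD, n = 3 each), was 721.

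The second gene, 103932052, lies on the plus strand of another scaffold, NW_008988578.1, from 304740 to 307198. Its levels were 6.76, 10.003 and 4.96 FPKM in green libraries B1, B2 and B3, from 223, 280 and 123 reads, against no read in the 3 russet libraries. Its gene model is the shortest of the 5, at 791 bp against 1629 to 2148 bp for the others. With a floor of 3 russet reads in all, it was at least 228-fold higher in green skin. Such bounds compare the reads of a gene summed over the libraries of a line, relative to the summed depth of that line, and not the mean FPKM.

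Genes 103929751 and 103929758 were at a similar, lower level. Gene 103929751, on the plus strand of NW_008988491.1 from 292063 to 298603, had 2.58, 2.95 and 1.94 FPKM in green libraries B1, B2 and B3, from 215, 209 and 122 reads. Gene 103929758, on the same strand from 233620 to 239401, had 2.03, 2.65 and 2.50 FPKM in green libraries B1, B2 and B3, from 138, 153 and 128 reads. Neither had a read in russet skin. The first was at least 199-fold higher in green skin and the second at least 153-fold, with the same floor.

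Gene 103929757, on the plus strand of NW_008988491.1 from 163702 to 170449, was barely expressed even in green skin. It had 0.628, 0.401 and 0.156 FPKM in green libraries B1, B2 and B3, from 48, 26 and 9 reads, and no read in russet skin. Its lower bound, from the summed reads, was only 30.2-fold. The floor of 3 reads over the russet libraries corresponds to 0.0118 to 0.0320 FPKM for the 5 genes. A russet level under these values could have left no read at this depth. These floors and bounds cover counting error only.

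**Figure D1:**
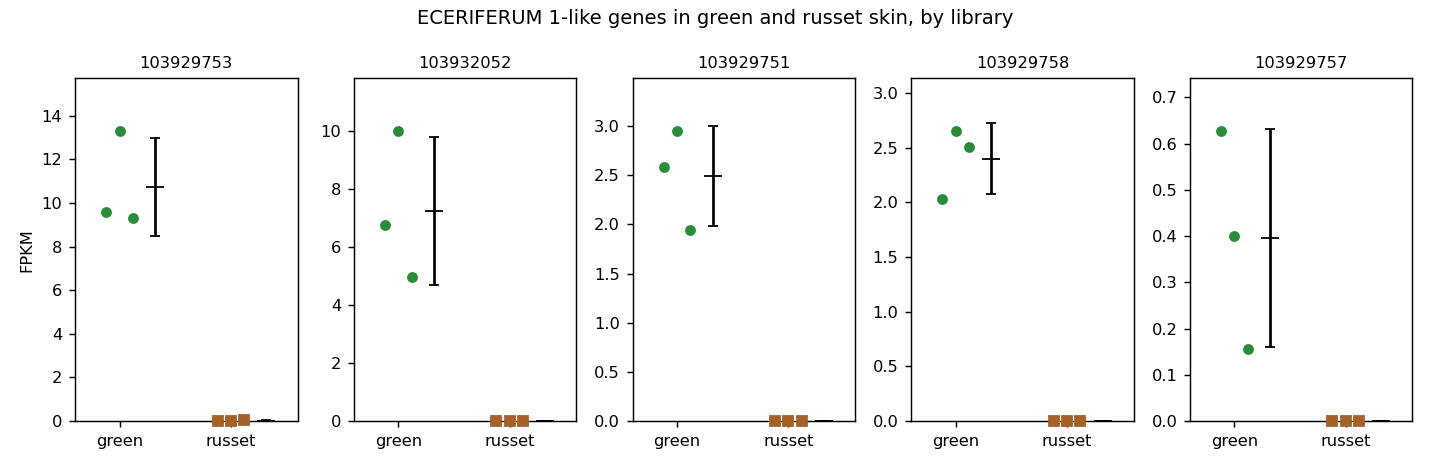
FPKM of the 5 ECERIFERUM 1-like genes in each library, with green libraries (circles) left of russet libraries (squares) and the mean ± SD beside them (n = 3 each). Each panel has its own axis from 0. All green points of 103929753 lie between 9.31 and 13.3 FPKM, and the highest russet point of any panel is 0.0447 FPKM.

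The green and russet libraries did not overlap in any of the 5 genes. Among all tested genes, 33.1% showed such a separation, 15.9% with green skin higher and 17.2% with it lower, but as the members were chosen by this contrast, nothing is read from their count. All 5 passed the filter on low values. On the scale of log2(FPKM + 0.1), their differences were 6.56 for 103929753, 6.14 for 103932052, 4.68 for 103929751, 4.63 for 103929758 and 2.18 for 103929757. For genes without a russet read, these differences depend on the pseudocount and are not bounds. Among the tested genes, 160 or 0.53% had no russet read but reads in every green library, and 4 of them were members. At most 4 russet and at least 83 green reads, the limits that hold for all 5 members, were found in 0.564% of the tested genes. Both sets of limits were taken from the members' own values, so nothing is read from these shares either.

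Within green skin, the members kept nearly the same order in each library. Gene 103929753 took 44.4% to 49.3% of the summed FPKM of the family and 103932052 took 26.3% to 34.1%. The FPKM ranges of these 2 genes overlapped over the green libraries, but 103929753 had the higher FPKM in each of them, by 1.42, 1.33 and 1.88 times in B1, B2 and B3. Genes 103929751 and 103929758 took 10.1% to 11.96% and 9.05% to 13.3%, and their order was not fixed. The ratio of 103929751 to 103929758 was 1.27 in B1, 1.11 in B2 and 0.777 in B3. Gene 103929757 came last in each green library with 0.829% to 2.91% of the sum.

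The spread over the green libraries differed among the members. The coefficient of variation was 13.5% for 103929758, 20.5% for 103929751, 20.9% for 103929753, 35.3% for 103932052 and 59.7% for 103929757. Library B2 was the highest in the 4 most abundant genes, whereas 103929757 was highest in B1. For 103929757 the exact 95% Poisson interval was 0.463 to 0.833 FPKM in B1 and 0.0715 to 0.297 FPKM in B3, and these intervals do not overlap. The summed level of the family differed 1.55-fold between the highest and the lowest green library.

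The genes other than 103932052 form an array on scaffold NW_008988491.1, which holds 18 genes in the table. The array runs over 171250 bp from 163702 to 334951. In scaffold order, it consists of 103929757, 103929758, 103929751 and 103929753, with the first 3 on the plus strand and the last on the minus strand. The genes are far apart, with 63170 bp between the first and the second and 52661 bp between the second and the third. Exons made up 27.2% to 34.0% of the length of each of the 5 gene models. Levels in green skin increased along the array, from 0.395 ± 0.236 FPKM for 103929757 over 2.40 ± 0.325 FPKM for 103929758 and 2.49 ± 0.510 FPKM for 103929751 to 10.7 ± 2.24 FPKM for 103929753 (SD, n = 3 each). The middle pair did not differ beyond its spread.

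Whether the silence in russet skin belongs to the array or to the whole segment was read from the genes in between and beside it. Only 1 other gene in the table, 103929752, lies within the array, and it had reads in both skins. It is on the plus strand from 302482 to 303757, between 103929751 and 103929753, and the study lists it under the ribosome pathway. It had 1.86, 3.59 and 2.81 FPKM in green libraries B1, B2 and B3, from 52, 85 and 59 reads. In russet libraries A1, A2 and A3 it had 0.704, 0.175 and 0.535 FPKM, from 16, 5 and 15 reads. By these reads, the gene was lower in russet skin than in green skin, without overlap, but not silent. Whether its few russet reads came from similar genes elsewhere in the genome was not tested.

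The log2 difference of 103929752 was 2.41 (limma, SE 0.46 and adjusted p = 0.0132), i.e., higher in green skin. Of all tested genes, 15.3% passed the threshold of 0.05 on the adjusted p, 7.29% as higher and 8.05% as lower in green skin. The call was lost without green library B2 (adjusted p = 0.0580, limma, with 0.0175 to 0.0580 over the 6 libraries left out in turn). With a pseudocount of 1 FPKM the log2 difference was 1.34.

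Genes beside the array were expressed in russet skin as well. Of the 13 tested genes of this scaffold that are no members, 103929752 included, 13 had reads in each russet library, and the remaining gene, 103929756, was listed at 0 in all 6 libraries. The nearest gene with reads before the array, 103929750, ends 24279 bp before it. It had 6.30, 7.22 and 6.11 FPKM in green libraries B1, B2 and B3 and 7.85, 8.24 and 7.69 FPKM in russet libraries A1, A2 and A3 (limma, log2 difference -0.28 with SE 0.13 and adjusted p = 0.225). The first gene after the array, 103929755, starts 17969 bp behind it. It had 5.31, 5.57 and 6.67 FPKM in green libraries B1, B2 and B3 and 5.36, 5.41 and 6.48 FPKM in russet libraries A1, A2 and A3 (limma, log2 difference 0.02 with SE 0.16 and adjusted p = 0.948). The 213498 bp between these neighbours hold the 4 ECERIFERUM 1-like genes, 103929752 and the gene at 0 in all libraries, and russet skin had 36 reads on 103929752 and 4 on the others.

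**Figure D2:**
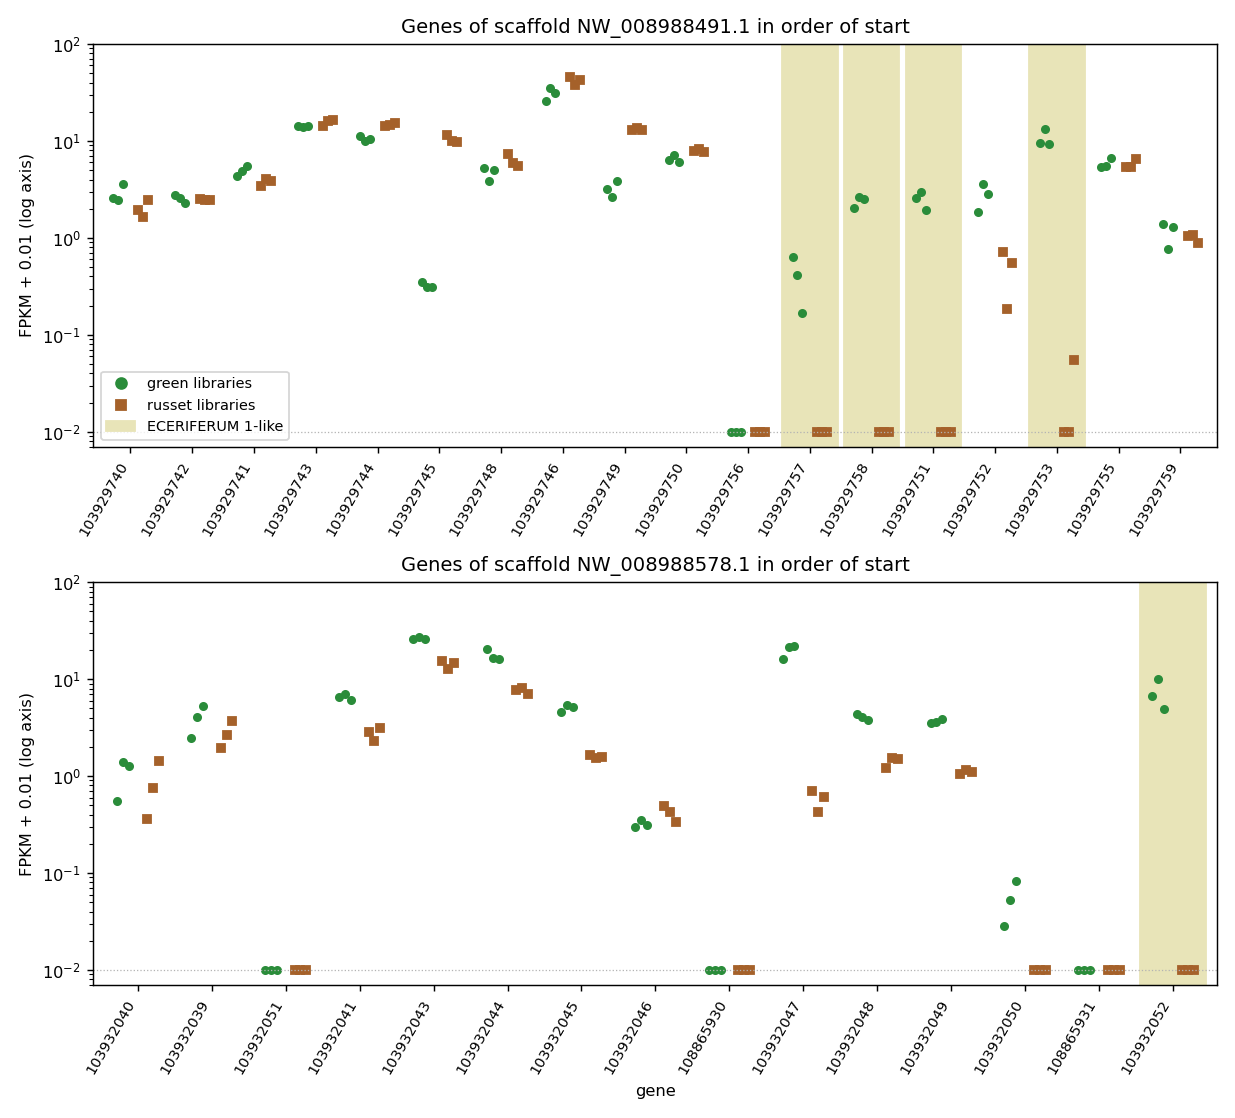
FPKM + 0.01 on a log axis for every gene of the scaffolds that carry ECERIFERUM 1-like genes (shaded), in order of gene start, with green libraries as circles left of russet libraries as squares. Points on the dotted line have no read. In the upper panel, the shaded genes fall to the dotted line in russet libraries, except for 4 reads in A3, while 103929752 among them keeps 0.175 to 0.704 FPKM.

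Before the array, the called changes ran the other way. Of the 10 nearest genes on that side, 9 could be tested. Of these, 0 were called higher and 3 were called lower in green skin (limma), against 7.29% and 8.05% of all tested genes. At an unadjusted p under 0.05, 0 were higher and 4 lower in green skin, and by limma voom on the recovered reads 0 and 3. The median log2 difference of the 9 genes was -0.40, where that of all tested genes was close to 0.

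The strongest of these decreases was that of 103929745, which the study lists under the proteasome pathway and which lies from 96483 to 100098. It had 0.344, 0.299 and 0.298 FPKM in green libraries B1, B2 and B3, against 11.6, 9.98 and 9.71 FPKM in russet libraries A1, A2 and A3, with a log2 difference of -4.67 (limma, SE 0.19 and adjusted p = 2.72e-05). Hence a gene on the same scaffold had few reads in green skin, the opposite of the array itself. The study matched it to the same apple gene as 103932044 on scaffold NW_008988578.1. The sum of both averaged 18.0 FPKM over green and 18.0 FPKM over russet libraries. How reads that fit both were split was not tested, nor was it for 103929749, next, and its counterpart 103932048. Gene 103929749, listed under the ribosome pathway and placed from 129476 to 131214, had 3.19, 2.65 and 3.89 FPKM in green libraries B1, B2 and B3 and 13.0, 13.6 and 12.9 FPKM in russet libraries A1, A2 and A3. Its log2 difference was -2.001 (limma, SE 0.17 and adjusted p = 0.000345). Gene 103929744 was called at -0.47 (limma, SE 0.11 and adjusted p = 0.0279), but this call was lost with any of the 6 libraries left out (adjusted p = 0.0507 to 0.0918, limma) and without a trend (adjusted p = 0.0567, limma).

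On the other side, only 2 genes follow the array, and 0 of them were called in either direction by limma, by limma voom or at an unadjusted p under 0.05. Their log2 differences were 0.02 for 103929755 and 0.16 for 103929759.

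Scaffold NW_008988578.1, with 15 genes in the table, carries 103932052 as its last gene. Its neighbours were higher in green skin. Of the 10 nearest genes before it, 7 could be tested, and 6 of these were called higher and 0 lower in green skin (limma), where 7.29% of all tested genes were called higher. By limma voom the numbers were 6 and 0, and at an unadjusted p under 0.05 they were 6 and 0. The median log2 difference was 1.47, and the exception was 103932046, at -0.28 (limma, SE 0.29 and adjusted p = 0.603). Among the called genes, 103932044 and 103932048 are the counterparts of 103929745 and 103929749, which were lower in green skin. How reads were split within these pairs was not tested.

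The largest of these increases was that of 103932047, which the study lists under pyrimidine metabolism and which lies from 89438 to 94599. It had 16.1, 21.2 and 21.9 FPKM in green libraries B1, B2 and B3 and 0.689, 0.415 and 0.597 FPKM in russet libraries A1, A2 and A3, with a log2 difference of 4.90 (limma, SE 0.23 and adjusted p = 3.56e-05). For 103932049, without a name in the tables, the log2 difference was 1.66 (limma, SE 0.18 and adjusted p = 0.00122). For 103932045, listed under pyruvate metabolism and carbon fixation, it was 1.62 (limma, SE 0.17 and adjusted p = 0.000971). In every russet library, 103932047 kept 0.415 FPKM or more, 103932049 kept 1.03 FPKM or more and 103932045 kept 1.53 FPKM or more, unlike 103932052 itself.

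Between 103932052 and the nearest tested gene lie 143344 bp without a gene and then 103932050 and 108865931. Gene 103932050 had 6 green reads in all and no russet read, too few to be tested, and 108865931 was listed at 0 in all 6 libraries. On this scaffold, the silence in russet skin therefore could not be told apart from that of the stretch around the gene, as no other gene of that stretch had more than 6 reads in either skin.

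**Figure D3:**
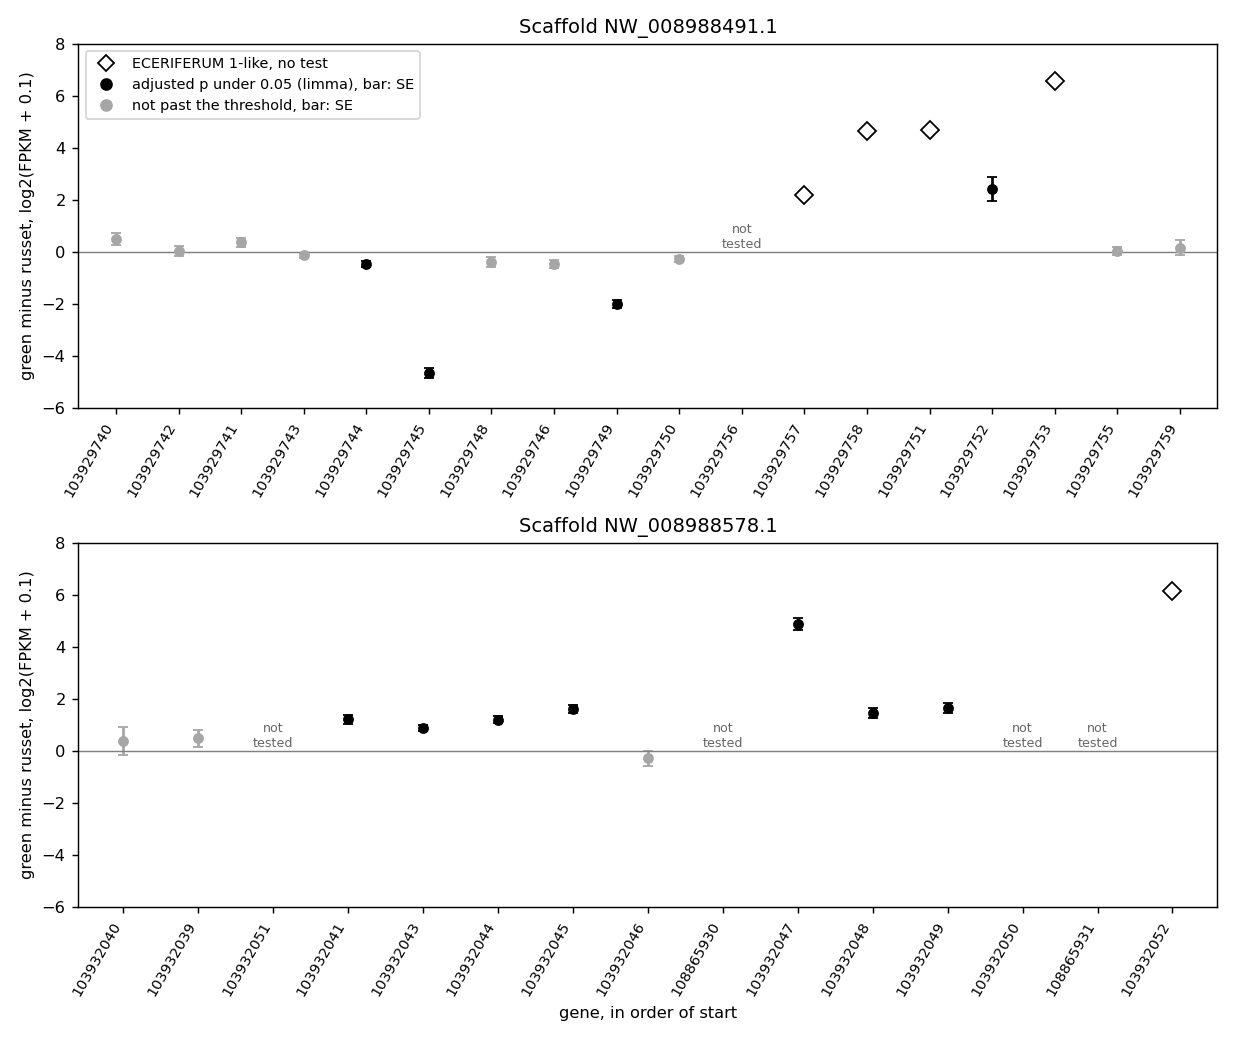
Difference between green and russet skin on the log2(FPKM + 0.1) scale for each gene of the same scaffolds, in order of start. Bars are the SE from limma, black points have an adjusted p under 0.05, grey points do not, and open diamonds are the ECERIFERUM 1-like genes, for which no test is given. In the upper panel, 103929745 stands at -4.67 before the array and the diamonds between 2.18 and 6.56, and in the lower panel the black points range from 0.89 to 4.90.

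The other 16 genes that the study lists under cutin, suberine and wax biosynthesis were set beside the family. That list was chosen by the study on these libraries, so its counts are no independent evidence. Of the 16, 15 were called (limma), 4 higher and 11 lower in green skin, against 7.29% and 8.05% of all tested genes. The median log2 difference was -3.06. All 5 ECERIFERUM 1-like genes were higher in green skin, the direction of the smaller share of that list. They were chosen by this contrast, so nothing is read from their count.

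With them on the green side stood 103963865, which the study assigns to CYP86A, a family of cytochromes P450 that hydroxylates fatty acids at the last carbon. It had 96.9, 114 and 85.4 FPKM in green libraries B1, B2 and B3 and 2.11, 1.01 and 0.979 FPKM in russet libraries A1, A2 and A3 (limma, log2 difference 6.15 with SE 0.29 and adjusted p = 3.56e-05). Its green level was thus far above that of 103929753 per length, but it kept 368 reads in russet skin, where the whole ECERIFERUM 1-like family kept 4. Genes 103957174, without a name in the tables, and 103954216, which the study lists among genes of lipid biosynthesis, followed with 2.99 (limma, SE 0.33 and adjusted p = 0.00115) and 2.34 (limma, SE 0.29 and adjusted p = 0.00202).

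On the russet side, the largest changes were those of 103964024 and 103936111, which the study lists among transferases of acyl groups, and of 103943216, which has no name in the tables. Gene 103964024 had 1.22, 1.11 and 0.704 FPKM in green libraries B1, B2 and B3 and 78.9, 41.6 and 43.8 FPKM in russet libraries A1, A2 and A3, a log2 difference of -5.59 (limma, SE 0.30 and adjusted p = 5.85e-05). For 103943216 and 103936111 the log2 differences were -5.17 (limma, SE 0.34 and adjusted p = 0.000112) and -4.88 (limma, SE 0.32 and adjusted p = 0.000115). Genes 103962065, which the study assigns to the formation of wax esters, and 103965278 mirrored the ECERIFERUM 1-like genes, with no read in green skin and 150 and 121 reads in russet skin. They were at least 45.8-fold and 36.9-fold lower in green skin when the floor is set at 3 green reads in all.

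**Figure D4:**
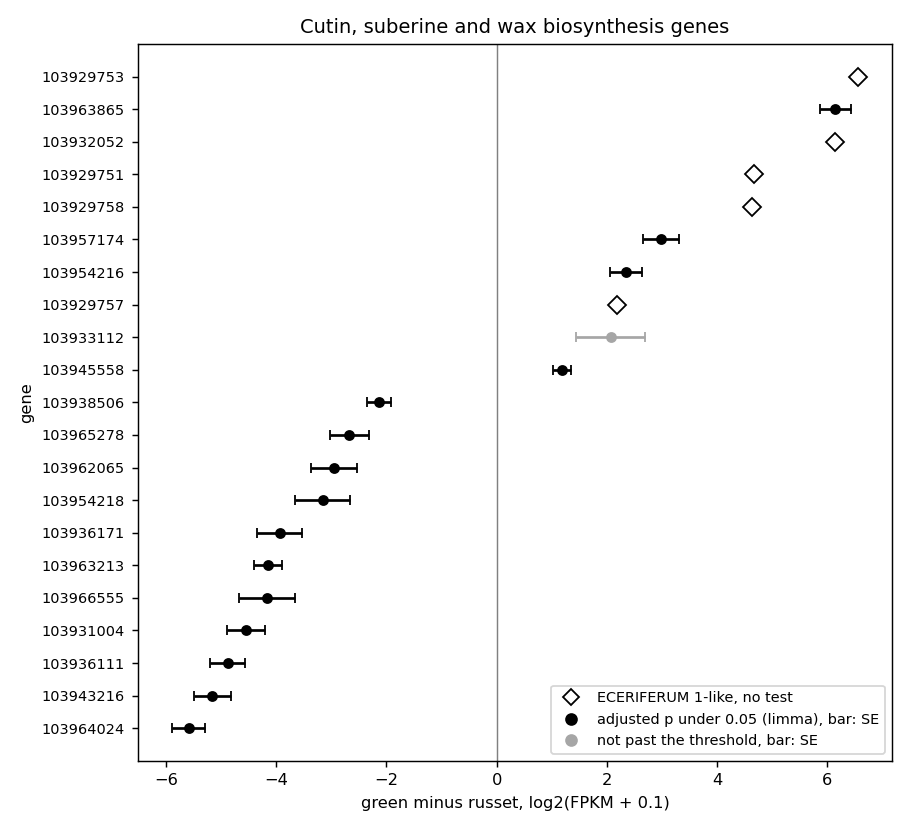
Difference between green and russet skin on the log2(FPKM + 0.1) scale for the 21 genes listed under cutin, suberine and wax biosynthesis, ordered by the difference. Bars are the SE from limma, black points have an adjusted p under 0.05, the grey point does not, and open diamonds are the ECERIFERUM 1-like genes without a test. The diamonds stand between 2.18 and 6.56, and 11 other genes lie below 0.

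The genes most like the family over the 6 libraries were sought by the Pearson correlation of log2(FPKM + 0.1) with that of the summed level of the 5 genes, among 23834 other genes that reached 1 FPKM on average. Because the green and russet libraries form 2 clusters, the coefficient mainly reflects the difference between the lines, and 228 genes had a value over 0.99. It is given as a description. The 5 highest were 103944138, 103945826, 103965485, 103966817 and 103964668, at 0.9993 to 0.9997. The first, 103944138, is named as a GDSL esterase/lipase, and the others have no name in the tables. It had 57.9, 101 and 62.4 FPKM in green libraries B1, B2 and B3, against no read in russet libraries A1 and A2 and 4 reads in A3. Gene 103966817, by contrast, had 20.4 to 21.2 FPKM in green libraries and 9.43 to 9.95 FPKM in russet libraries.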

How the data were processed

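RNA-Seq libraries of fruit skin from 3 green and 3 russet samples were used. By their methods, the authors removed poor reads, aligned the others with HISAT2 2.0.4 to the Chinese white pear genome at NCBI, assembled transcripts with Cufflinks 2.1.1 and deposited FPKM per gene, beside a table of gene positions and lengths. The genome build and the read counter are not given in the sources used here, nor is the treatment of reads that match several members of a family. The deposited columns were assigned to russet (A) and green (B) skin by the study's own legend.

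Read numbers were recovered as whole multiples of 1 read (tolerance 0.0001). With the deposited lengths, 74.5% of the 191857 values above 0 came out whole, and for 8439 genes another length between 20 and 40000 bp was used, nearest to the deposited one. Among the members, these were 103929753, at 2139 bp for a deposited 2148 bp, and 103929751, at 1999 bp for 2143 bp. In R 4.3.3, limma 3.58.1 with a trended variance was run on log2(FPKM + 0.1) over genes that reached 0.1 FPKM on average, two-sided, with Benjamini-Hochberg adjustment over all of them and a threshold of 0.05. An exact permutation test of 3 against 3 cannot give a p under 0.1 and was not run. Python 3.11.15 with pandas 2.3.3 and matplotlib 3.10.9 made tables and figures. The limma fit was tested on simulated data, and the recovery of read numbers was not.

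The members and lists were chosen with earlier results of these data known. Named genes are the members, the gene between them, per side at most 3 called genes of the largest change among the 10 on it, per list the 3 largest called increases and decreases, and the 5 most alike. The nearest neighbours 103929750, 103929755, 103929759, 103932046, 103932050 and 108865931, the 2 pathway genes without a green read and the genes at 0 were named after their values were seen, as was the count of genes without a russet read. Lists by product name were not applied, as few products are named. Deviations of libraries with the same number from their group means correlated at 0.195, 0.211 and 0.323 across genes, so the library number, taken from the column names, was tried as a block. The numbers in the sample labels differ between the lines, and the reported fit has no block.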

Additional observations from a re-analysis of the deposited data

How the results depend on the processing

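Beside the members and between them, the alternatives ended only the calls of 103929752 and 103929744 given above, and the 9 genes called beside the members were 8 or 9 under every alternative, with 6 higher in green skin in each. The call of 103929752 was lost only without green library B2, and its log2 fold change was 1.95 to 2.72 with each library left out and 1.34 to 2.68 otherwise. Of the other cutin, suberine and wax genes, 12 to 16 were called, with 12 when a mean of at least 1 FPKM was required, where fewer could be tested. Gene 103933112 of that list, at 2.07 (adjusted p = 0.0722, limma), was called with a pseudocount of 0.01 FPKM or without green library B3. Across all genes, 4625 were called, 3172 to 3624 with each library left out and 6038 with the library number as a replicate block, which moved none of the calls printed here. With each library left out, the small and uncalled differences of 103929742 (-0.030 to 0.11, below 0 without green library B1) and 103929755 (-0.073 to 0.11, below 0 without green library B3, russet library A1 or russet library A2) changed sign. The log2 differences of the members moved with the pseudocount, to 0.47 for 103929757 and 3.52 for 103929753 at 1 FPKM and to 5.14 and 9.23 at 0.01 FPKM. The mean summed level of the members in green skin was 23.3 FPKM, 20.2 to 25.5 with each green library left out and 23.4 with median-ratio scaling. Depth limits 103929757 most, with 83 green reads.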

Other observations

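Among the genes on the study's pathway lists, the scaffolds that carry the ECERIFERUM 1-like genes hold 3 pairs matched to the same apple gene. The pairs are in the same order and on the same strands. Matches were read only from these lists, which the study chose as differing between these libraries. Pairs of genes outside the lists therefore could not be seen. The 3 pairs were noticed after the values were seen, and no test was made. The first pair is 103929745 on NW_008988491.1 and 103932044 on NW_008988578.1, listed under the proteasome pathway. Gene 103932044 had 20.6, 16.5 and 16.0 FPKM in green libraries B1, B2 and B3 and 7.70, 8.02 and 7.02 FPKM in russet libraries A1, A2 and A3, while 103929745 stood at 0.298 to 0.344 FPKM in green libraries and 9.71 to 11.6 FPKM in russet libraries. The sum of both averaged 18.0 ± 2.57 FPKM over green and 18.0 ± 1.28 FPKM over russet libraries (SD, n = 3 each), so the opposite changes left no difference in the sum beyond the spread.

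The second pair is 103929749 and 103932048, listed under the ribosome pathway. Gene 103932048 had 4.39, 4.03 and 3.75 FPKM in green libraries B1, B2 and B3 and 1.20, 1.53 and 1.49 FPKM in russet libraries A1, A2 and A3. The sum of this pair averaged 7.30 ± 0.540 FPKM over green and 14.5 ± 0.468 FPKM over russet libraries (SD, n = 3 each), so here the opposite changes did not balance.

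The third pair consists of the ECERIFERUM 1-like genes 103929758 and 103932052. Both were higher in green skin, with a sum of 9.64 ± 2.70 FPKM (SD, n = 3), and neither had a read in russet skin. The other 3 members were matched to another apple gene, shared by all of them. Whether the scaffolds are copies of 1 region and how reads that fit both were assigned was not tested.

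In scaffold order, 103929757, 103929758 and 103929751 are 3 neighbouring genes without a russet read and with reads in every green library. Such genes numbered 282 in the whole table, and runs of at least 3 neighbours occurred 2 times in it, this run included. As the members were chosen by the difference between both skins, nothing is read from these counts.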
